A study of Mus musculus with 2 samples.

Results

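Regulatory T cells (Treg cells) of visceral adipose tissue (VAT) were set against Treg cells of spleen in single-cell RNA sequencing of sorted CD4 T cells. A cell counted as a Treg cell where at least 1 unique molecular identifier (UMI, 1 counted RNA molecule) of Foxp3, the transcription factor that defines the lineage, was read in it. The cells were thus chosen by their own Foxp3, Trbc1, Trbc2 and hashtag counts. The 425 cells described here, 220 from VAT and 205 from spleen, were drawn from 12789 T cells that passed the quality limits, out of 16724 barcodes in all. They came from hashed samples, in which cells of each tissue carry a DNA-tagged antibody before pooling: VAT1 to VAT4 gave 53, 43, 73 and 51 Treg cells, and SPLN1 to SPLN4 gave 35, 49, 64 and 57.

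The cells were TCRb+CD3+CD4+ cells of 8-week-old male C57BL/6J WT mice, with no treatment named. Each of the 2 experiments pooled duplicate samples of VAT, spleen, subcutaneous fat (SAT) and brown fat (BAT) into 1 library, so VAT1, VAT2, SPLN1 and SPLN2 share the first library and VAT3, VAT4, SPLN3 and SPLN4 the second. Fat was taken apart with collagenase II as well as mechanically and spleen mechanically, so tissue and digestion cannot be told apart in any VAT against spleen value. Which visceral depot was taken, and whether animals were pooled, is not given in the sources used here.

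Treg cells restrain immune responses and depend on Foxp3, the high-affinity IL-2 receptor and CTLA-4. In mice, those that circulate through spleen and lymph nodes keep CCR7, a receptor for entry into lymph nodes. Visceral fat of mice is known for a resident Treg population that needs the nuclear receptor PPARγ, senses the alarmin IL-33 through its receptor ST2 (gene Il1rl1) and makes repair factors such as amphiregulin.

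Treg markers were read beside the label, without Foxp3-zero cells for comparison, so they describe the cells and do not test the label. The 6 of them other than Foxp3 together reached 1459 to 2099.8 CPM (UMIs per 1000000 of the scaled library total) in VAT samples and 905 to 1346 CPM in spleen samples, with none of the 6 at 0 in either tissue. Il2ra (CD25, a chain of the IL-2 receptor) was read in 105 of 220 VAT cells and 86 of 205 spleen cells, Ctla4 in 142 and 94, and Ikzf2 (Helios) in 184 and 135. Foxp3 itself chose the cells, and its values are given as a description: 83 VAT and 93 spleen cells had a single Foxp3 UMI and the highest count was 11 in VAT and 8 in spleen. Foxp3+ cells made up 11.6, 12.1, 6.99 and 6.66% of the T cells of VAT1 to VAT4, against 8.495, 11.5, 7.41 and 5.57% of those of SPLN1 to SPLN4. A cell was given to a tissue where its scaled top hashtag was at least 2 times the second. Just inside that limit, at 2 to 2.5 times, lay 16 VAT and 6 spleen cells, and 11 VAT and 7 spleen cells with Foxp3 lay just outside, at 1.5 to 2 times.

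Depth was lower in the second library. The summed Treg cells held 305984 to 451626 UMIs per VAT sample and 269759 to 358933 per spleen sample, and the median cell held 6521, 5501, 4290.0 and 4074 UMIs in VAT1 to VAT4, against 6997, 6175, 4604 and 4613 UMIs in SPLN1 to SPLN4. That difference, -501 UMIs, had an exact permutation p of 0.222 (two-sided, tissues permuted within experiments); leaving out 1 sample moved it between -976 (without VAT1, exact permutation p = 0.0556) and -34.3 (without SPLN1). The libraries shared 20 barcodes, of which 8 were kept T cells in both libraries and none was a member in both. Of the other cell types a sort or droplet could carry in, myeloid and dendritic cell markers differed most: 8 genes summed to 231, 2737, 153 and 2634 CPM in VAT1 to VAT4, against 201, 86.4, 28.8 and 23.2 CPM in SPLN1 to SPLN4, where Adgre1 and Itgax were at 0. In VAT, 5 cells with at least 10 myeloid UMIs each held 93.4% of them, 755 of 880 in a single VAT2 cell and 781 of 809 in a single VAT4 cell, although the sort took TCRb+CD3+CD4+ cells. B cell markers summed to 300 to 603 CPM in VAT and 373 to 652 CPM in spleen, neutrophil markers to 0 in VAT and 0 to 2.87 CPM in spleen, and adipocyte markers to 7.28 to 37.3 CPM in VAT and 0 to 17.9 CPM in spleen. Erythroid markers summed to 82.7, 99.5, 153 and 13.02 CPM in VAT1 to VAT4, against 51.7, 41.7, 19.2 and 7.73 CPM in SPLN1 to SPLN4; of their 5 genes Hbb-bs (a β-globin) was tested and rose (log2 fold change 1.31), and Alas2 was at 0 in both tissues. Endothelial markers summed to 36.1 to 58.6 CPM in VAT and 64.1 to 80.4 CPM in spleen, without overlap, where Cldn5 and Kdr were at 0 in spleen. The part of these markers in the results below was not tested beyond counts of genes called without certain cells. Those were myeloid-rich cells, and cells with any, or with 3 or more, UMIs of other cell types. Other types here are B, myeloid, stromal, adipocyte, endothelial and erythroid cells, and 180 of 220 VAT and 172 of 205 spleen Treg cells had such a UMI. Genes of the immediate early and heat shock response, which tissue digestion can raise, took 2.29, 2.43, 1.84 and 1.51% of UMIs in VAT1 to VAT4 and 1.03, 1.13, 1.102 and 1.06% in SPLN1 to SPLN4, with no overlap (exact permutation p = 0.0556, two-sided, the smallest that 36 arrangements allow). They are described apart from the other genes.

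**Figure D1:**
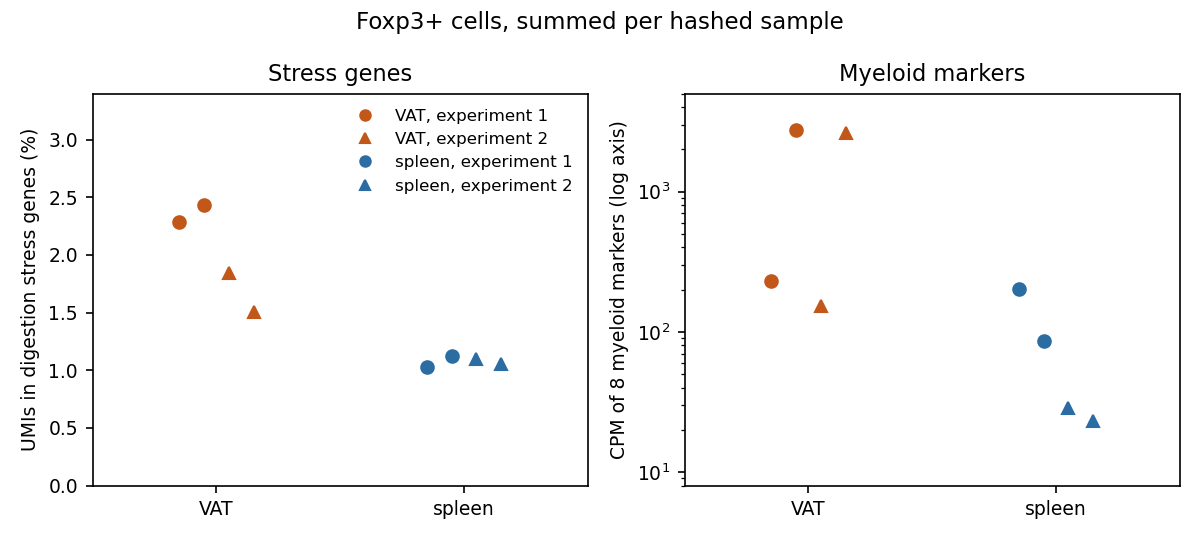
Stress genes and myeloid markers in the Treg cells of each hashed sample, VAT at the left and spleen at the right (circles, experiment 1; triangles, experiment 2). The left panel gives the share of UMIs from digestion stress genes in percent, between 1.51% and 2.43% in VAT and between 1.03% and 1.13% in spleen; the right panel gives the summed CPM of 8 myeloid markers on a log axis, where VAT2 and VAT4 stand highest, at 2737 and 2634 CPM.

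VAT Treg cells had more RNA than spleen Treg cells of most tested genes in the lists of tissue Treg receptors, secreted products, adhesion and retention genes and S100, annexin and galectin genes, and less of most listed genes of the naive and recirculating state. Of 4357 genes tested, 357 were higher in VAT (8.19% of those tested) and 274 lower (6.29%) at an adjusted p under 0.05, by edgeR's quasi-likelihood test on UMIs summed per hashed sample, with experiment as a term and Benjamini-Hochberg adjustment. The median log2 fold change over the genes tested was -0.00426. The expression filter could be passed on the samples of either tissue alone. A gene near 0 in spleen could thus only be called higher in VAT, and a gene near 0 in VAT only lower. Of the 631 genes called, 570 also had VAT and spleen samples that did not overlap within either experiment, and 364 were called in each of the 8 fits that left out 1 sample. Lack of overlap goes with being called, so the 570 is a description and no separate support. Over all 4357 genes tested, 333 had every VAT sample above every spleen sample and 295 had every VAT sample below. In sums of this kind, fewer cells with a transcript and fewer transcripts per cell cannot be told apart, so the share of cells with a UMI is given for the main genes. The number of duplicates limits every test here to 4 samples a tissue.

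Receptors known from Treg cells of tissues were higher in VAT. Of 15 listed, 10 were tested, and 8 rose and none fell, with a median log2 fold change of 2.44. Some of them, such as Ltb4r1, Cxcr6 and Ccr3, passed the expression filter through VAT and could only rise, which lifts this count and median. Il1rl1, which encodes the IL-33 receptor ST2, had 231, 221, 75.2 and 84.7 CPM in VAT1 to VAT4, against 45.97, 29.8, 9.62 and 0 CPM in SPLN1 to SPLN4. The lowest VAT sample lay above the highest spleen sample (log2 fold change 2.83 ± 0.27, adjusted p = 3.07e-08). Klrg1, a lectin-like inhibitory receptor of differentiated T cells that binds cadherins, had 276, 329.7, 165 and 163 CPM in VAT1 to VAT4, against 45.97, 80.5, 51.3 and 23.2 CPM in SPLN1 to SPLN4 (log2 fold change 2.21 ± 0.203, adjusted p = 1.79e-08). Ccr2, the receptor for the monocyte chemokine CCL2, had 356, 454, 223 and 299.6 CPM in VAT1 to VAT4, against 83.3, 53.6, 38.5 and 15.5 CPM in SPLN1 to SPLN4, again without overlap (log2 fold change 2.79 ± 0.205, adjusted p = 3.98e-10).

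The other 5 receptors of the list that rose were Ltb4r1, Cxcr6, Ccr3, Cd200r1 and Tnfrsf1b. Ltb4r1, the leukotriene B4 receptor, had 204, 224, 121 and 114 CPM in VAT1 to VAT4, against 63.2, 17.9, 16.03 and 0 CPM in SPLN1 to SPLN4 (log2 fold change 2.74 ± 0.31, adjusted p = 3.88e-07). Cxcr6, the receptor for the membrane-bound chemokine CXCL16, had 176, 128, 92.2 and 52.1 CPM in VAT1 to VAT4, against 57.5, 8.94, 0 and 3.86 CPM in SPLN1 to SPLN4 (log2 fold change 2.68 ± 0.39, adjusted p = 1.77e-05), and its log2 fold change was 4.45 without SPLN1, the spleen sample with most Cxcr6. The eotaxin receptor Ccr3 was read in 38 VAT cells and 3 spleen cells, with 31.8, 71.5, 48.5 and 32.6 CPM in VAT1 to VAT4, against 2.87, 5.96, 0 and 0 CPM in SPLN1 to SPLN4. It stood on 3 spleen UMIs, and its level over the summed samples was 19.5 times (95% counting interval 6.39 to 96.8) that of spleen. Cd200r1 (an inhibitory receptor for CD200, log2 fold change 1.54, adjusted p = 8.87e-05) and Tnfrsf1b (a tumour necrosis factor receptor, 1.14, adjusted p = 0.00306) rose by less. Ptger4 (a prostaglandin E2 receptor, log2 fold change 0.503, adjusted p = 0.241) and Il18r1 (0.22, adjusted p = 0.694) did not pass the test. Ccr1, Ccr8, Il9r, Gpr55 and Adora2a had too few UMIs to be tested.

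Sequence at RefSeq starts of 3 of these receptor genes is shown as an example of the windows in which motif letters were counted; they were picked because they hold the letters of a GATA motif, so that they do is not a result. Each window is the 250 bases before a RefSeq transcript start on GRCm38.p6, 5′ to 3′ on the gene's strand. Capitals mark AGATAA, its reverse complement TTATCT, and the AP-1 letters TGANTCA. Il1rl1 lies at chr1:40429570-40465415, forward strand (mm10, GENCODE vM21), and its RefSeq starts give the windows chr1:40429320-40429569 and chr1:40439379-40439628 on the forward strand. Ccr2 lies at chr9:124101950-124113557, forward strand, with the window chr9:124101933-124102182, and Ccr3 at chr9:124021972-124031689, forward strand, with the window chr9:124021721-124021970, both on the forward strand. Set against these GENCODE genes, the first Il1rl1 window and the Ccr3 window lie before the gene, while 250 of 250 bases of the second Il1rl1 window and 233 of 250 of the Ccr2 window, capitals included, lie inside the gene.
Il1rl1, first start: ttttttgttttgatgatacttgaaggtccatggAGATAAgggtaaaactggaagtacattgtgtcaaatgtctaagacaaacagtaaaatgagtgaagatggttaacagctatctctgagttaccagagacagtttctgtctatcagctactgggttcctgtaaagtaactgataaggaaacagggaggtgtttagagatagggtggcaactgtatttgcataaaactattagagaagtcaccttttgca
Il1rl1, second start: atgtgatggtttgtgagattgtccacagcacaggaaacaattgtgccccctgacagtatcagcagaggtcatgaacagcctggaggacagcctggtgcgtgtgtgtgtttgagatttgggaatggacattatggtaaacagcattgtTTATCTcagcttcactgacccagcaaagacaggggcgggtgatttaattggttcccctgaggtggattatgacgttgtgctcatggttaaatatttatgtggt
Ccr2: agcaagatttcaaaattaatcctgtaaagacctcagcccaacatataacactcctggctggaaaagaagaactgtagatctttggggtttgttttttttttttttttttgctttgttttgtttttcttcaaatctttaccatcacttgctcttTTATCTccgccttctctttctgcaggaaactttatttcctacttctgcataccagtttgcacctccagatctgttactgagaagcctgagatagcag
Ccr3: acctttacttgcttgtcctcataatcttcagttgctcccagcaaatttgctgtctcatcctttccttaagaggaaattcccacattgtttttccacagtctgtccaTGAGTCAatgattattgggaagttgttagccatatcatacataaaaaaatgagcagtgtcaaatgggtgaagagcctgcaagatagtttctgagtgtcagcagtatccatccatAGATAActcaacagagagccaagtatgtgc
AGATAA on either strand was found in the windows of 11.1% of the genes higher in VAT that had a window and lay outside the stress lists (28 of 253), 7.51% of those lower (16 of 213), 7.09% of the tested genes with a window (249 of 3511) and 11.4% of 27025 mouse genes with a window. TGANTCA was found in 11.5% of the higher genes (29 of 253), 5.63% of the lower (12 of 213), 5.01% of the tested and 7.82% of all genes with a window. The direct repeat to which PPAR factors bind, searched on both strands, was in no window of a tested gene and in 0.0407% of all genes with a window. These are counts of letters in short windows, matches of different motifs may overlap, and a window with none of them, such as that of Areg, says nothing about binding.

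Genes for secreted products were higher in VAT Treg cells, some of them in few cells. Of 18 listed, 8 were tested, and 6 rose and none fell (median log2 fold change 2.88). Areg, Metrnl, Gzmb and Cxcl2 passed the expression filter through VAT and could only rise, so the count and median of this list are no separate support. Areg, which encodes the epidermal growth factor receptor ligand amphiregulin, had 191, 429, 94.6 and 68.4 CPM in VAT1 to VAT4, against 5.75, 32.8, 9.62 and 0 CPM in SPLN1 to SPLN4, with no overlap (log2 fold change 3.97 ± 0.39, adjusted p = 5.29e-08). It was read in 32 VAT cells and 5 spleen cells. Metrnl, the gene of the secreted protein meteorin-like, had 91.2, 40.4, 36.4 and 68.4 CPM in VAT1 to VAT4, against 5.75, 5.96, 3.21 and 0 CPM in SPLN1 to SPLN4 (log2 fold change 3.84 ± 0.51, adjusted p = 4.64e-06).

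Gzmb, which encodes the protease granzyme B, rested on 298 VAT UMIs in 40 cells and 4 spleen UMIs in 3 cells. It had 125, 187, 405 and 39.1 CPM in VAT1 to VAT4, against 0, 11.9, 0 and 0 CPM in SPLN1 to SPLN4, and 33.9% of its VAT UMIs lay in a single cell (log2 fold change 5.74 ± 0.73, adjusted p = 2.51e-06; 9.12 without SPLN2, the spleen sample that held all its spleen UMIs). Fgl2, a fibrinogen-like protein that Treg cells can release, had 189, 329.7, 141 and 107 CPM in VAT1 to VAT4, against 109, 77.5, 19.2 and 3.86 CPM in SPLN1 to SPLN4 (log2 fold change 1.91 ± 0.28, adjusted p = 1.58e-05). Its lowest VAT sample, VAT4, lay just under SPLN1. Cxcl2, a neutrophil chemokine, had 554, 880.4, 84.9 and 208 CPM in VAT1 to VAT4, against 0, 77.5, 25.6 and 0 CPM in SPLN1 to SPLN4 (log2 fold change 4.02 ± 0.43, adjusted p = 1.44e-07), but it was read in 26 VAT cells and 3 spleen cells and its adjusted p was 0.0672 by DESeq2. Without the cells with 10 or more myeloid UMIs, its log2 fold change was 6.07. Il10 had 71 UMIs in 19 VAT cells and 5 UMIs in 4 spleen cells, too few for the test. Penk (the opioid precursor proenkephalin) and Tgfb1 gave log2 fold changes of -0.31 (adjusted p = 0.674) and 0.32 (adjusted p = 0.299).

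Transcription factors of tissue Treg cells also stood higher in VAT. Of 16 listed, 9 were tested, and 7 rose and none fell (median log2 fold change 1.23). Gata3, the factor of type 2 T cells, had 259, 379.5, 221 and 147 CPM in VAT1 to VAT4, against 147, 152, 73.7 and 61.8 CPM in SPLN1 to SPLN4 (log2 fold change 1.23 ± 0.17, adjusted p = 1.08e-05). Within each experiment VAT lay above spleen, while VAT4 was level with SPLN1 and below SPLN2 of the other library. Rora, a nuclear receptor of type 2 lymphocytes, had 204, 202, 141 and 91.2 CPM in VAT1 to VAT4, against 45.97, 113, 32.1 and 7.73 CPM in SPLN1 to SPLN4 (log2 fold change 1.72 ± 0.27, adjusted p = 5.96e-05). Nfil3 (a basic leucine zipper factor, log2 fold change 1.95), Id2 (an inhibitor of E proteins, 1.602), Rbpj (the nuclear partner of Notch, 0.83) and Maf (0.69) rose with adjusted p between 0.000326 and 0.00403; the adjusted p of Id2 was 0.102 by DESeq2. VAT and spleen overlapped for Rora, Rbpj and Maf.

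Pparg, the PPARγ gene, was too sparse for the test. Its 38 VAT UMIs and 4 spleen UMIs gave 29.7, 37.3, 16.98 and 16.3 CPM in VAT1 to VAT4, against 8.62, 2.98, 0 and 0 CPM in SPLN1 to SPLN4, and SPLN3 and SPLN4 had none. Prdm1, the Blimp-1 gene of effector Treg cells, rose by 1.53 (adjusted p = 0.00427), a call lost without SPLN2 (log2 fold change 1.16, adjusted p = 0.061). Batf (log2 fold change 0.204, adjusted p = 0.634) and Hif1a (0.37, adjusted p = 0.0926) did not pass.

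Treg core genes moved less than these lists. Of 19 listed, 15 were tested, and 5 rose and 1 fell (median log2 fold change 0.41). Ctla4, the inhibitory receptor through which Treg cells strip CD80 and CD86 from other cells, had 534, 566, 434 and 189 CPM in VAT1 to VAT4, against 135, 137, 199 and 209 CPM in SPLN1 to SPLN4. VAT4 lay among the spleen samples and the other VAT samples above them (log2 fold change 1.36 ± 0.22, adjusted p = 9.74e-05). Tnfrsf18 (GITR, log2 fold change 0.91, adjusted p = 6.66e-05), Tnfrsf4 (OX40, 1.13, adjusted p = 0.000813, but 0.083 by DESeq2), Icos (0.95, adjusted p = 0.000423) and Capg (an actin-capping protein, 1.14, adjusted p = 7.51e-05) rose.

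Izumo1r, the folate receptor FR4 of Treg cells, was the core gene that fell, with 93.3, 99.5, 199 and 251 CPM in VAT1 to VAT4, against 261, 384, 589.7 and 568 CPM in SPLN1 to SPLN4 and no overlap (log2 fold change -1.52 ± 0.15, adjusted p = 4.16e-08). Il2ra (0.35, adjusted p = 0.216) and Ikzf2 (0.41, adjusted p = 0.0546) did not pass the test on this scale, and neither did Nrp1 (0.17, adjusted p = 0.722). Gpr83 had 8.48, 6.22, 14.6 and 29.3 CPM in VAT1 to VAT4, against 31.6, 47.7, 67.3 and 50.2 CPM in SPLN1 to SPLN4, with the higher values in spleen, and was not tested.

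**Figure D2:**
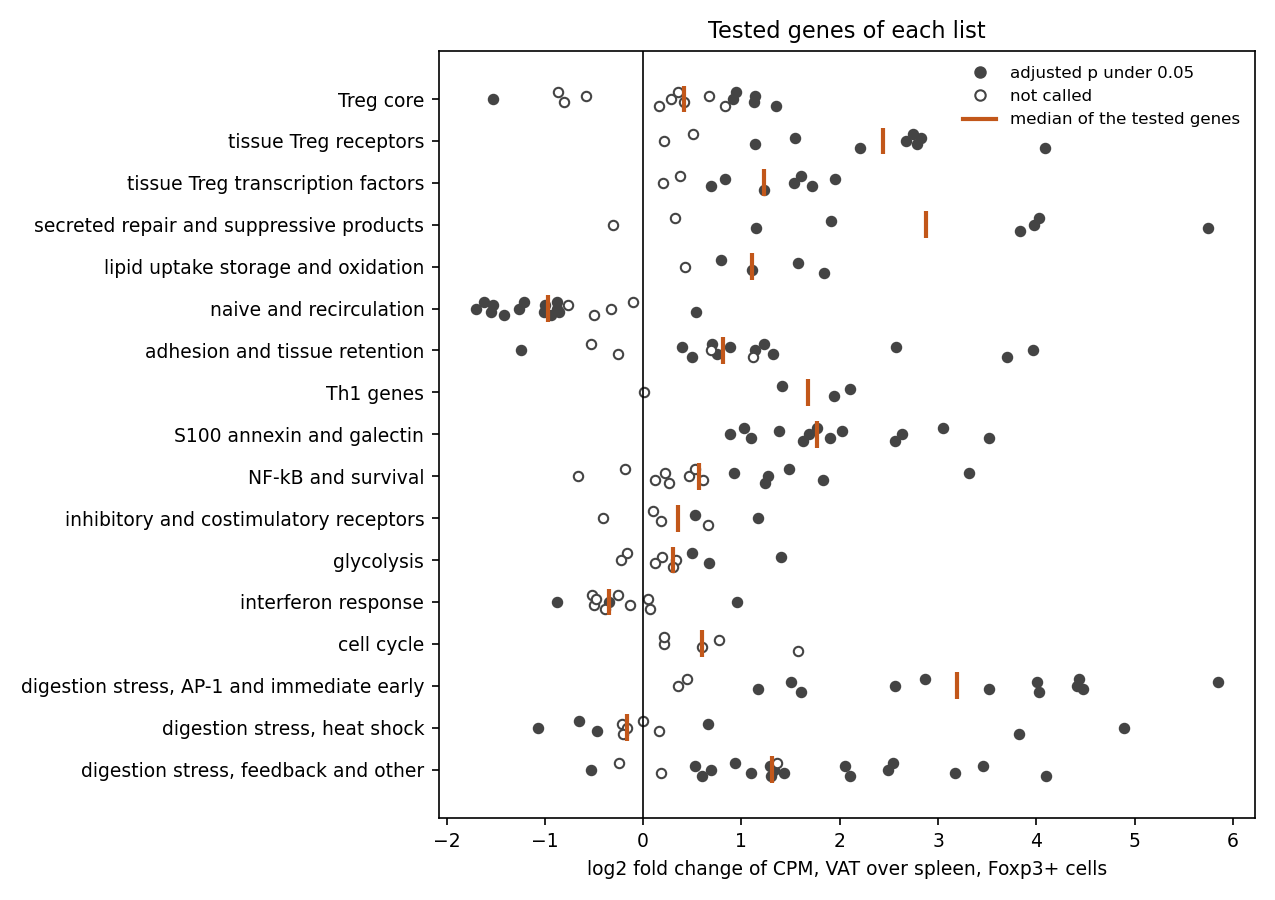
Log2 fold change of VAT over spleen in Treg cells for each tested gene of the fixed lists (points; filled where adjusted p was under 0.05, bars at the list median). The S100, annexin and galectin genes and the tissue receptors lie above 0, the naive and recirculation genes mostly below 0, and the Treg core genes around 0.41.

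Genes of the naive and recirculating state were lower in VAT Treg cells. All 18 listed were tested; 13 fell and 1 rose (median log2 fold change -0.97). The transcription factors of quiescence Foxp1 (-1.41, adjusted p = 8.48e-07), Bach2 (-1.54, 0.00084), Satb1 (-1.26, 0.00124), Tcf7 (-1.01, 0.000445), Lef1 (-0.87, 0.000711) and Id3 (-1.52, 0.000434) all fell, as did the costimulatory receptor Cd27 (-0.85, 4.15e-05) and the survival gene Bcl2 (-1.21, 0.00184). By DESeq2, 8 of the 18 fell and 1 rose, and the adjusted p was 0.0777 for Satb1 and 0.0657 for Bcl2. Experiment 1 alone gave 10 that fell and experiment 2 alone 6. Over all genes tested, 170 of 4357 fell by DESeq2, 93 of 4933 in experiment 1 alone and 131 of 4304 in experiment 2 alone.

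Foxp1 had 123, 74.7, 146 and 137 CPM in VAT1 to VAT4, against 328, 378, 321 and 267 CPM in SPLN1 to SPLN4, with no overlap. Actn1, an actin crosslinker of the list, had 46.7, 3.11, 26.7 and 35.8 CPM in VAT1 to VAT4, against 109, 125, 67.3 and 88.9 CPM in SPLN1 to SPLN4 (log2 fold change -1.700 ± 0.32, adjusted p = 0.000501). Klf2 and S1pr1, which guide T cells out of tissues into blood and lymph, gave log2 fold changes of -0.103 (adjusted p = 0.658) and -0.33 (adjusted p = 0.146) and did not pass. The exception in direction was Il7r, the IL-7 receptor, at 477 ± 54.3 CPM in VAT and 336 ± 61.6 CPM in spleen (log2 fold change 0.54 ± 0.14, adjusted p = 0.0073); its call was lost without SPLN2 (log2 fold change 0.45, adjusted p = 0.0524) and without VAT1 (0.44, adjusted p = 0.0573).

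Adhesion and retention genes mostly rose, 11 of 16 tested with 1 that fell, out of 20 listed (median log2 fold change 0.81). Cd69, which keeps cells in tissue by holding S1PR1 inside the cell and also marks recent activation, had 327, 333, 177 and 257 CPM in VAT1 to VAT4, against 71.8, 41.7, 38.5 and 30.9 CPM in SPLN1 to SPLN4, with no overlap (log2 fold change 2.57 ± 0.196, adjusted p = 6.23e-10). Rgs2, a regulator of G-protein signals, had 223, 187, 143 and 91.2 CPM in VAT1 to VAT4, against 20.1, 14.9, 6.41 and 7.73 CPM in SPLN1 to SPLN4 (log2 fold change 3.700 ± 0.27, adjusted p = 3.98e-10). The integrin genes Itgav (1.32), Itgb1 (0.88), Itga4 (0.75) and Itgb7 (0.700) and the hyaluronan receptor Cd44 (1.13) rose with adjusted p between 6.12e-06 and 0.00344. Cd9, a tetraspanin, fell (log2 fold change -1.24 ± 0.28, adjusted p = 0.00237). Itgae, the integrin of epithelial residence, had 40.3, 27.997, 9.704 and 19.5 CPM in VAT1 to VAT4, against 5.75, 5.96, 16.03 and 3.86 CPM in SPLN1 to SPLN4 and was not tested.

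The S100, annexin and galectin list moved as a whole in direction: 13 of 14 listed genes were tested and each of the 13 rose (median log2 fold change 1.77). Each also had VAT samples above all spleen samples, as did 333 of the 4357 genes tested, while 295 had them below. S100a6, a calcium-binding protein, had 3097, 4700.4, 3617 and 2999 CPM in VAT1 to VAT4, against 1051, 471, 689 and 178 CPM in SPLN1 to SPLN4 (log2 fold change 2.63 ± 0.23, adjusted p = 8.47e-09). S100a4, another of that family, had 2872, 3341, 2533 and 2214 CPM in VAT1 to VAT4, against 1181, 247, 490.4 and 54.1 CPM in SPLN1 to SPLN4, with SPLN1 the highest spleen sample (log2 fold change 2.56 ± 0.33, adjusted p = 3.24e-06). Lgals3, the gene of galectin-3, had 214, 336, 223 and 231 CPM in VAT1 to VAT4, against 66.1, 23.8, 9.62 and 19.3 CPM in SPLN1 to SPLN4 (log2 fold change 3.05 ± 0.27, adjusted p = 8.47e-09), and Anxa1, the glucocorticoid-induced annexin, had 104, 177, 72.8 and 48.8 CPM in VAT1 to VAT4, against 17.2, 5.96, 6.41 and 3.86 CPM in SPLN1 to SPLN4 (log2 fold change 3.52 ± 0.36, adjusted p = 8.42e-08). Vim (the intermediate filament vimentin, 2.02, adjusted p = 1.15e-07) and Lgals1 (galectin-1, 1.77, adjusted p = 3.65e-06) rose by less.

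By size of change among the genes with no overlap within either experiment, outside the stress lists, the 12 highest in VAT included Gzmb, Fcer1g, Myadm, Apoe, AA467197, Cdkn1a, Ccr3, Cxcl2, Areg, Metrnl and Ttc39c. Cdkn1a, the cell cycle inhibitor p21, had 119, 62.2, 46.1 and 81.4 CPM in VAT1 to VAT4, against 2.87, 11.9, 0 and 0 CPM in SPLN1 to SPLN4 (log2 fold change 4.23 ± 0.503, adjusted p = 9.17e-07). Ttc39c, a tetratricopeptide repeat protein gene, had 102, 87.1, 67.9 and 58.6 CPM in VAT1 to VAT4, against 11.5, 2.98, 3.21 and 3.86 CPM in SPLN1 to SPLN4 and was read in 69 VAT cells and 6 spleen cells (log2 fold change 3.797 ± 0.38, adjusted p = 5.29e-08). AA467197 was read in 29 VAT cells and 1 spleen cell, with 86.96, 59.1, 53.4 and 35.8 CPM in VAT1 to VAT4, against 8.62, 0, 0 and 0 CPM in SPLN1 to SPLN4. Its 93 VAT and 3 spleen UMIs gave a level 26.6 times (95% counting interval 8.84 to 132) that of spleen, and its fitted log2 fold change was 4.52, or 7.29 without SPLN1. Myadm, a membrane protein gene, had 31.8, 83.99, 31.5 and 39.1 CPM in VAT1 to VAT4, against 5.75, 0, 0 and 0 CPM in SPLN1 to SPLN4; its 67 VAT and 2 spleen UMIs gave a level 28.8 times (95% counting interval 7.67 to 243) that of spleen, and the fitted log2 fold change was 4.58, or 6.88 without SPLN1.

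Apoe and Fcer1g belong beside the myeloid values. Apoe, a lipid carrier abundant in macrophages, had 263, 55.99, 294 and 42.3 CPM in VAT1 to VAT4, against 5.75, 14.9, 3.21 and 3.86 CPM in SPLN1 to SPLN4 in 14 VAT cells and 8 spleen cells, with 43.8% of its VAT UMIs in a single cell (log2 fold change 4.54 ± 0.63, adjusted p = 1.03e-05). Fcer1g, the shared signalling chain of Fc receptors, had 142, 109, 36.4 and 221 CPM in VAT1 to VAT4, against 0, 8.94, 0 and 0 CPM in SPLN1 to SPLN4, from 185 UMIs in 6 VAT cells and 3 UMIs in 1 spleen cell, a level 53.01 times (95% counting interval 17.9 to 259) that of spleen (fitted log2 fold change 5.52, or 8.42 without SPLN2). That interval takes UMIs as independent draws, which those of so few cells are not, so it is too narrow. Without the 7 cells with 10 or more myeloid UMIs, neither gene had enough UMIs to be tested. Cd74, the invariant chain of antigen presentation, had 72.1, 1661, 77.6 and 886 CPM in VAT1 to VAT4, against 112, 71.5, 25.6 and 11.6 CPM in SPLN1 to SPLN4 (log2 fold change 3.59 ± 0.700, adjusted p = 0.000631), with 49.2% of its VAT UMIs in a single cell; the log2 fold change was 1.78 (adjusted p = 0.00183) without those cells, and the call was lost without VAT2 (2.21, adjusted p = 0.0646).

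The main lists were counted again without those 7 cells, an alternative chosen after seeing the data. Without them, 348 of 4233 genes tested were higher in VAT (8.22%) and 268 lower (6.33%), and 8 of 10 tested tissue receptors rose (median log2 fold change 2.65), 13 of 13 S100, annexin and galectin genes rose (1.79), and 14 of 18 naive and recirculation genes fell (-1.04). Il1rl1 had a log2 fold change of 3.54 without those cells and 3.94 without the 13 VAT and 10 spleen cells of over 15000 UMIs, cells that could hold more than 1 cell's RNA.

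The 10 genes lowest in VAT by the same rule were Mir142hg, Ift80, Treml2, Snhg20, Tbc1d4, Nsg2, BE692007, Dtx1, Gpr18 and Actn1. Mir142hg, the host transcript of the haematopoietic miRNA miR-142, had 14.8, 15.6, 14.6 and 13.02 CPM in VAT1 to VAT4, against 97.7, 140.1, 64.1 and 73.4 CPM in SPLN1 to SPLN4 (log2 fold change -2.65 ± 0.29, adjusted p = 2.56e-07). Ift80, a component of intraflagellar transport, had 31.8, 24.9, 21.8 and 39.1 CPM in VAT1 to VAT4, against 109, 149, 112 and 205 CPM in SPLN1 to SPLN4 (log2 fold change -2.26 ± 0.26, adjusted p = 5.3e-07). BE692007, a processed transcript on the reverse strand of chromosome 19, had 102, 77.8, 121 and 156 CPM in VAT1 to VAT4, against 379, 307, 471 and 506 CPM in SPLN1 to SPLN4 (log2 fold change -1.85 ± 0.15, adjusted p = 9.44e-10). In each of these 3 genes the highest VAT sample lay below the lowest spleen sample. Tbc1d4, a Rab GTPase-activating protein that insulin signalling uses in glucose transporter traffic, had 23.3, 12.4, 24.3 and 19.5 CPM in VAT1 to VAT4, against 40.2, 80.5, 99.4 and 139 CPM in SPLN1 to SPLN4 (log2 fold change -2.06 ± 0.31, adjusted p = 2.62e-05). Treml2 (-2.198), Snhg20 (-2.18), Nsg2 (-1.88), Dtx1 (a ligase in Notch signalling, -1.74) and Gpr18 (-1.72) fell with adjusted p between 3.37e-05 and 0.000984.

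**Figure D3:**
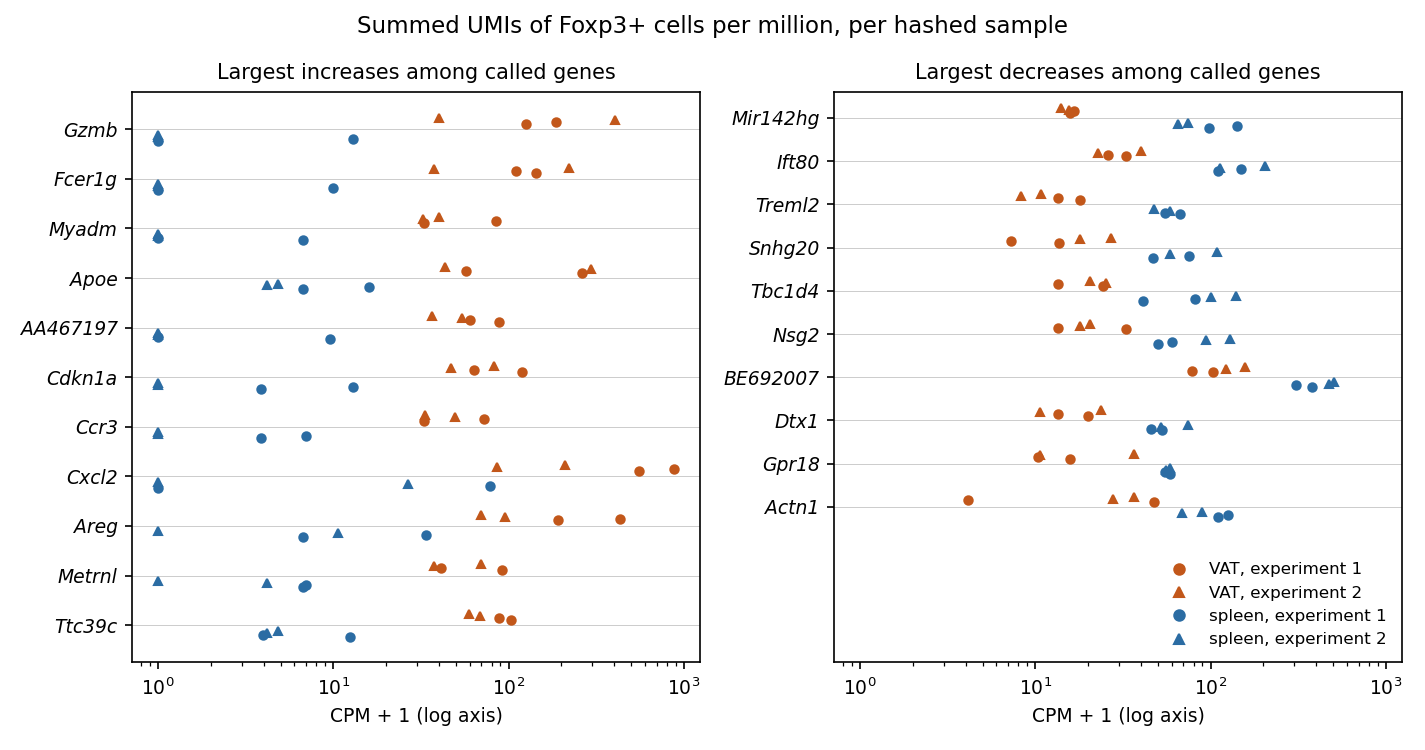
CPM plus 1 on a log axis in the Treg cells of each hashed sample, VAT drawn above spleen in each row, for 11 of the 12 genes highest and the 10 genes lowest in VAT. Several of the higher genes are at 0 CPM in 2 or more spleen samples, while the lower genes were read in every sample of both tissues.

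Genes of type 1 immunity were also higher in VAT Treg cells. Of 12 listed, 4 were tested, and 3 rose (median log2 fold change 1.67). Cxcr3, the receptor for interferon-induced chemokines, had 104, 121, 155 and 149.8 CPM in VAT1 to VAT4, against 60.3, 11.9, 60.9 and 69.6 CPM in SPLN1 to SPLN4 (log2 fold change 1.41 ± 0.25, adjusted p = 0.000249). Ccl5, a chemokine of effector T cells, had 339, 361, 497 and 791 CPM in VAT1 to VAT4, against 299, 83.4, 86.5 and 23.2 CPM in SPLN1 to SPLN4; SPLN1 lay near the VAT samples, and the log2 fold change was 1.94 ± 0.35 (adjusted p = 0.000282), or 2.92 without SPLN1. Nkg7, a cytotoxic granule protein, likewise moved with SPLN1 (2.101 ± 0.45, adjusted p = 0.00163, or 4.31 without SPLN1), and its adjusted p was 0.17 by DESeq2. Stat4 did not pass (0.01, adjusted p = 0.989). Ifng had 62 VAT UMIs in 31 cells and 9 spleen UMIs in 8 cells, and Tbx21 (the factor T-bet) 43 UMIs in 27 VAT cells and 9 UMIs in 5 spleen cells, both too few for the test.

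Signalling, survival and metabolic genes gave mixed counts. Of the NF-kB and survival list, 6 of 14 rose and none fell (median log2 fold change 0.57): Tnfaip3, the A20 brake on NF-kB, had 261, 296, 138 and 137 CPM in VAT1 to VAT4, against 8.62, 26.8, 35.3 and 11.6 CPM in SPLN1 to SPLN4 (log2 fold change 3.32 ± 0.29, adjusted p = 6.04e-09), and Traf1 (1.27, adjusted p = 3.65e-06), Bcl2l1 (Bcl-xL, 1.49, adjusted p = 0.00183) and Icam1 (1.24, adjusted p = 0.00499) rose. Bcl2a1b (0.93) and Bcl2a1d (1.83) were called too, though near-identical copies can share reads. Of 18 genes of lipid uptake, storage and oxidation, 5 were tested and 4 rose (median 1.11), among them Dgat1, which makes triglyceride (log2 fold change 1.84 ± 0.395, adjusted p = 0.00168), and Plin2, a lipid droplet coat (log2 fold change 1.58 ± 0.32, adjusted p = 0.0011; 0.137 by DESeq2). Of the 5 tested lipid genes, DESeq2 called 1, experiment 1 alone 3 and experiment 2 alone 0. Over all genes tested these fits called 400 of 4357, 323 of 4933 and 330 of 4304. Cd36, the fatty acid receptor of the list, had 19 UMIs in VAT and 1 in spleen and was not tested.

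Of 9 glycolysis genes tested out of 11, 3 rose (median 0.30), with Tpi1 (log2 fold change 1.401 ± 0.22, adjusted p = 4.93e-05) and Gapdh (log2 fold change 0.67 ± 0.12, adjusted p = 0.000277) called in every fit that left out 1 sample. Ldha (0.19, adjusted p = 0.372) and Eno1 (0.13, adjusted p = 0.67) did not pass. Interferon response genes gave 1 higher and 2 lower of 11 tested out of 14 (median -0.35): Ly6a (Sca-1) rose (log2 fold change 0.96 ± 0.14, adjusted p = 1.77e-05), and Ifi27l2a, an interferon-induced gene, fell (log2 fold change -0.35 ± 0.11, adjusted p = 0.0308) but stood at 0.260 in cells with a low share of stress genes. Of 12 inhibitory and costimulatory receptors, 6 were tested and 2 rose (median 0.36). DESeq2 called 0 of these 6, and 0 of 5 tested were called in cells with a low share of stress genes. Over all genes tested these fits called 400 of 4357 and 242 of 3499. No cell cycle gene of the 5 tested out of 12 was called (median 0.60), and Stmn1 (stathmin) came nearest with 263, 37.3, 70.4 and 257 CPM in VAT1 to VAT4, against 175, 11.9, 19.2 and 7.73 CPM in SPLN1 to SPLN4 (log2 fold change 1.58 ± 0.55, adjusted p = 0.0576).

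The immediate early and heat shock genes were set apart because they respond to enzymes and handling. Of 19 AP-1 and immediate early genes, 14 were tested and 12 rose (median log2 fold change 3.19), and of 25 feedback and related genes, 20 were tested, 16 rose and 1 fell (median 1.31). Fos had 1016, 803, 704 and 462 CPM in VAT1 to VAT4, against 68.9, 32.8, 32.1 and 3.86 CPM in SPLN1 to SPLN4 (log2 fold change 4.42 ± 0.23, adjusted p = 8.01e-13). Dusp1, a phosphatase induced with it, had 725, 715, 371 and 238 CPM in VAT1 to VAT4, against 40.2, 23.8, 22.4 and 34.8 CPM in SPLN1 to SPLN4 (log2 fold change 4.097 ± 0.22, adjusted p = 8.01e-13). Fosl2, of the same AP-1 family, had 99 UMIs in VAT and 1 in spleen, a level 85.1 times (95% counting interval 14.9 to 3395) that of spleen. Fosb (4.47, adjusted p = 2.75e-10) and the nuclear receptor Nr4a3 (4.43, adjusted p = 3.07e-08) rose as well.

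Heat shock genes did not move together, with 3 of 11 tested higher and 3 lower out of 14 (median -0.16). The inducible chaperone gene Hspa1a had 131, 205, 116 and 39.1 CPM in VAT1 to VAT4, against 2.87, 8.94, 0 and 3.86 CPM in SPLN1 to SPLN4 (log2 fold change 4.895 ± 0.46, adjusted p = 2.54e-08), though reads can be split with its near copy Hspa1b (log2 fold change 3.83 ± 0.34, adjusted p = 7.99e-09). The chaperones Hspe1 (-0.65, adjusted p = 0.000206) and Hsph1 (-1.07, adjusted p = 0.00147) fell. Cells whose stress-gene share was at or under the median of 1.36% numbered 11, 5, 33 and 25 in VAT1 to VAT4, against 31, 41, 51 and 48 in SPLN1 to SPLN4, and VAT2, with under 10 cells, was left out of that fit. Of 3499 genes tested there, 144 were higher in VAT (4.12%) and 98 lower (2.8%), 242 in place of 631; 12 of 12 tested S100, annexin and galectin genes rose there (median 1.81), 2 of 6 tested tissue receptors rose (1.104), and 0 of 7 tested transcription factors were called (0.40). Of the 18 naive and recirculation genes, 6 fell there and 0 rose (median -0.87). Of the adhesion and retention genes, 5 of 12 tested rose and 0 fell (0.74). Among the secreted products 2 could be tested there and 0 were called (0.63). How far digestion sets the other gene groups was not tested.

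The share of Treg cells with a UMI was taken for 6 genes. Il1rl1 was read in 45.3, 51.2, 21.9 and 25.5% of the Treg cells of VAT1 to VAT4, against 11.4, 8.16, 4.69 and 0% of those of SPLN1 to SPLN4, or 35.96% ± 14.4 in VAT and 6.07% ± 4.89 in spleen (SD, n = 4 each). Klrg1 was read in 66.04, 60.5, 31.5 and 37.3% in VAT1 to VAT4 and 20, 12.2, 9.38 and 3.51% in SPLN1 to SPLN4. Areg was read in 20.8, 25.6, 6.85 and 9.804% in VAT and 2.86, 4.08, 3.12 and 0% in spleen, in the same sample order. Both VAT samples of the first library had larger shares of these 3 genes than both of the second. The difference between VAT and spleen for Il1rl1 was 38.4 percentage points in experiment 1 and 21.4 in experiment 2, and for Klrg1 47.1 and 27.9.

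Pparg was read in 16.98, 16.3, 8.22 and 9.804% of Treg cells in VAT1 to VAT4, against 5.71, 2.04, 0 and 0% in SPLN1 to SPLN4. Cxcr3 was read in 35.8, 39.5, 41.1 and 29.4% in VAT and 22.9, 8.16, 14.1 and 10.5% in spleen. Ccr7, a receptor of recirculating T cells, ran the other way, at 28.3, 9.302, 13.7 and 21.6% in VAT1 to VAT4 and 40, 34.7, 31.2 and 38.6% in SPLN1 to SPLN4. None of the 6 genes overlapped between tissues. Each of the 6 differences reached the smallest exact permutation p the design allows, 0.0556 (two-sided; 0.0556 after adjustment over the 6), which is above 0.05. With every cell thinned to 1000 UMIs the mean shares were 9.798% in VAT and 1.105% in spleen for Il1rl1 and 22.2% in VAT and 2.82% in spleen for Klrg1, each again at an exact permutation p of 0.0556. The thinned Il1rl1 shares overlapped between tissues, at 2.74% in VAT3 and 2.86% in SPLN1. Thinned, Pparg was at 1.54% in VAT and 0% in spleen (exact permutation p = 0.167) and Ccr7 at 5.799% in VAT and 10.8% in spleen (exact permutation p = 0.111).

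**Figure D4:**
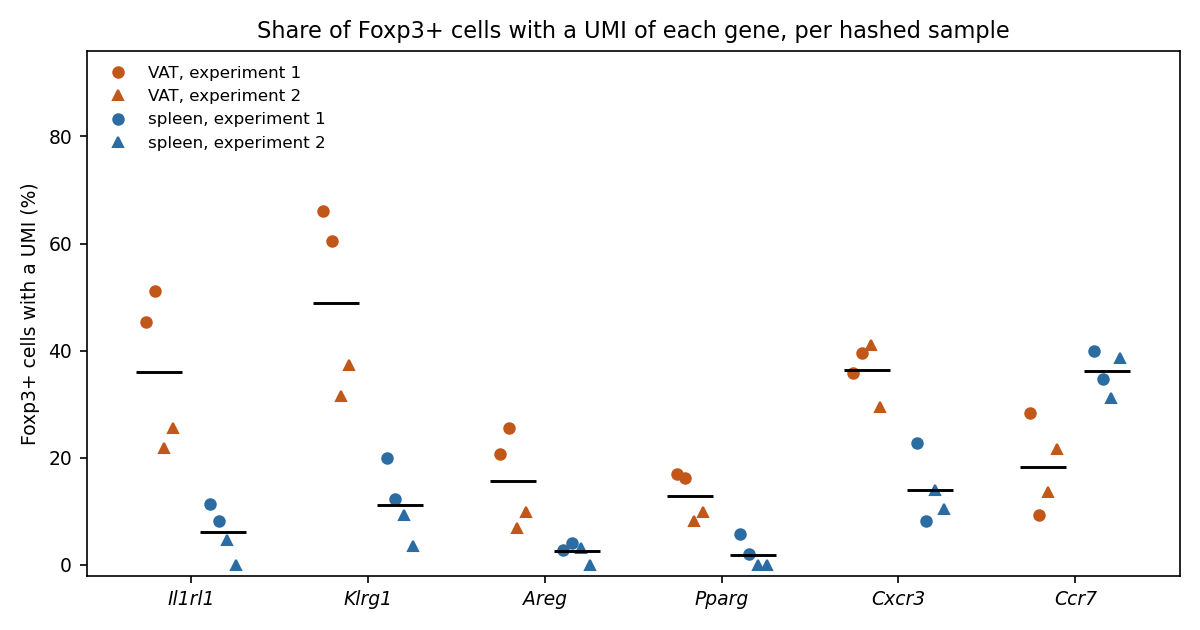
Percent of Treg cells with at least 1 UMI of 6 genes in each hashed sample, VAT at the left and spleen at the right of each pair (circles, experiment 1; triangles, experiment 2; bars, mean of 4 samples). Il1rl1, Klrg1, Areg, Pparg and Cxcr3 lie higher in every VAT sample and Ccr7 lower, with the VAT samples of experiment 1 highest for Il1rl1, Klrg1 and Areg.

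Free RNA in droplets can give a UMI to a cell that does not make the transcript, so the same shares were taken in Foxp3-zero cells with a Ccr7 UMI, a marker of recirculating T cells. Whether those cells were resting was not tested. Among 863 such VAT cells (median 5394 UMIs) Il1rl1 was read in 1.51%, Klrg1 in 2.09%, Areg in 0.116% and Pparg in 0.348%. Among 1573 such spleen cells (median 5738 UMIs) Il1rl1 was read in 0.254%, Klrg1 in 0.763%, and Areg and Pparg in 0.0636% each. Treg cells lay above these in both tissues, at medians of 5073.5 UMIs in VAT and 5198 in spleen: pooled, 34.1% of VAT and 5.37% of spleen Treg cells had Il1rl1, and 46.8% and 10.2% had Klrg1. Cxcr3 was read in 18.4% of these VAT cells and 5.09% of these spleen cells, against 36.8% of VAT Treg cells and 13.2% of spleen Treg cells, so they give no background for it. The counting intervals above cover counting error alone and take the UMIs of a cell as independent.

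The markers were also counted together in single VAT Treg cells. Of 75 Treg cells with an Il1rl1 UMI, 62 had Klrg1 as well, against 41 of the other 145; 22 of the 32 Areg cells had Il1rl1. Cxcr3 was read in 21 of the 75 Il1rl1 cells and 60 of the other 145. A Ccr7 UMI was found in 8 of the 75 Il1rl1 cells and 32 of the other 145. In spleen, 11 Treg cells had Il1rl1, of which 8 had Klrg1 and 3 had Ccr7. These counts are over pooled cells, which share their samples, and Il1rl1 cells were deeper than the rest in both tissues (medians 6410 and 4618 UMIs in VAT, 11269 and 5160 in spleen), which raises the chance of reading any second gene.

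The contrast was also measured among Treg cells without an Il1rl1 UMI, 145 in VAT and 194 in spleen. Of 3692 genes tested, 228 were higher in VAT (6.18%) and 196 lower (5.31%). These cells are a part of the Treg cells above, so many of the same calls were bound to recur. Of the 631 genes called in all Treg cells, 385 (61.0%) were called here too, which is 90.8% of the 424 called here. Lgals3 had 242, 227, 101 and 127 CPM in VAT1 to VAT4, against 15.04, 14.5, 9.51 and 18.5 CPM in SPLN1 to SPLN4 in these cells (log2 fold change 3.51 ± 0.29, adjusted p = 2.13e-09). S100a4 (log2 fold change 2.93 ± 0.24, adjusted p = 1.62e-09), Ltb4r1 (log2 fold change 3.01 ± 0.46, adjusted p = 3.91e-05), Tnfaip3 (log2 fold change 2.95 ± 0.35, adjusted p = 8.74e-07) and Ctla2a (log2 fold change 3.26 ± 0.31, adjusted p = 2.1e-08) rose. Cd74 had 104, 3469, 74.7 and 1210.4 CPM in VAT1 to VAT4, against 3.76, 50.8, 22.2 and 11.1 CPM in SPLN1 to SPLN4 (log2 fold change 5.61 ± 0.86, adjusted p = 4.1e-05), with the myeloid-rich samples VAT2 and VAT4 the highest.

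Each of 12 tested S100, annexin and galectin genes rose in the Il1rl1-zero cells (median 1.85), and 10 of 18 naive and recirculation genes fell with none higher (median -0.76). Fewer tissue receptors could be tested, 7 of 15, of which 4 rose (median 1.00); Ccr2 rose by 2.75 (adjusted p = 4.37e-09) and Klrg1 by 1.78 (adjusted p = 2.34e-05). Gata3 rose by 0.69 (adjusted p = 0.0223), a call lost without any 1 of SPLN1, SPLN3, SPLN4, VAT1, VAT3 and VAT4 (log2 fold change 0.60 to 0.71, adjusted p 0.0555 to 0.0972). Mir142hg (log2 fold change -3.03 ± 0.36, adjusted p = 8.95e-07), Tbc1d4 (log2 fold change -1.96 ± 0.34, adjusted p = 0.000231) and Ift80 (log2 fold change -1.97 ± 0.26, adjusted p = 5.68e-06) fell. At these depths a cell with no Il1rl1 UMI may still make the transcript, and both sets share their samples and the Il1rl1-zero cells.

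The same contrast was measured in the other CD4 T cells of the same samples. Among 2405 VAT and 2521 spleen T cells with no Foxp3 UMI, 10061 genes were tested, of which 1851 were higher in VAT (18.4%) and 1741 lower (17.3%). With library size in place of the scaling, 2346 were higher and 1215 lower. The effect itself differed between Treg and Foxp3-zero cells for 55 of 9117 genes, by edgeR's interaction term with the hashed sample as block. The VAT over spleen log2 fold change, taken with its sign, was higher in Treg cells for 10 of them (0.11%) and lower for 45 (0.494%). Foxp3-zero cells may include Treg cells whose Foxp3 was not read. With Foxp3-zero cells drawn down to the number of Treg cells, 13 genes were called, and without SPLN2 or SPLN3 28 and 24.

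Tent5a, a poly(A) polymerase that lengthens RNA tails, had the largest positive difference. Treg cells had 142, 193, 148 and 163 CPM in VAT1 to VAT4, against 45.97, 29.8, 12.8 and 34.8 CPM in SPLN1 to SPLN4, with no overlap, while Foxp3-zero cells averaged 59.7 ± 6.51 CPM in VAT and 50.4 ± 2.63 CPM in spleen (difference of log2 fold changes 2.14 ± 0.27, adjusted p = 5.86e-05). Zfp36, which destabilises cytokine RNA and is on the stress lists (1.76, adjusted p = 7.93e-05), and Jund (0.68, adjusted p = 0.00465) also rose more in Treg cells. Tent5a gave 2.44 (adjusted p = 0.00474) with cells drawn down.

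Among the genes with a smaller effect in Treg cells were an integrin, a cytokine receptor chain and a scaffold. Itgb1, the integrin β1 chain, averaged 484 ± 29.5 CPM in VAT and 265 ± 32.1 CPM in spleen in Treg cells; its log2 fold change was 0.88 there and 2.88 in Foxp3-zero cells (difference -2.001, adjusted p = 5.56e-07). Il2rb, a chain of the IL-2 and IL-15 receptors, averaged 237 ± 42.3 CPM in VAT and 198 ± 37.6 CPM in spleen in Treg cells, with log2 fold changes of 0.28 in Treg cells and 2.42 in Foxp3-zero cells (difference -2.13, adjusted p = 2.49e-06). Maf gave 0.69 and 2.11 (difference -1.42, adjusted p = 0.000154), and the scaffold Ahnak 1.62 and 3.05 (difference -1.41, adjusted p = 2.09e-05).

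For Bcl2 and Tbc1d4 the classes went in opposite directions. Bcl2 fell by 1.21 on the log2 scale in VAT Treg cells and rose by 0.71 in Foxp3-zero cells (difference -1.896, adjusted p = 0.000186). Tbc1d4 averaged 19.9 ± 5.37 CPM in VAT and 89.8 ± 41.1 CPM in spleen in Treg cells, against 52.4 ± 7.23 CPM in VAT and 39.4 ± 8.104 CPM in spleen in Foxp3-zero cells (difference -2.48 ± 0.33, adjusted p = 0.000132), and gave -2.37 (adjusted p = 0.0403) with cells drawn down. Mdfic averaged 55.7 ± 5.71 CPM in VAT and 47.9 ± 15.3 CPM in spleen in Treg cells and 39.9 ± 5.16 CPM in VAT and 6.07 ± 1.92 CPM in spleen in Foxp3-zero cells (difference -2.46 ± 0.36, adjusted p = 0.000234). Socs2, a suppressor of cytokine signalling, had log2 fold changes of 1.35 in Treg cells and 3.78 in Foxp3-zero cells (difference -2.35 ± 0.39, adjusted p = 0.00147). The differences of Tent5a, Zfp36, Jund, Itgb1, Il2rb, Maf, Ahnak, Bcl2, Tbc1d4, Mdfic and Socs2 were called in each of the 8 fits that left out 1 sample. With cells drawn down, the calls of Tent5a, Zfp36, Itgb1, Il2rb, Ahnak, Bcl2 and Tbc1d4 were kept, and those of Jund (adjusted p = 0.491), Maf (0.49), Mdfic (0.126) and Socs2 (0.354) were lost.

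Genes that describe visceral fat Treg cells did not pass this test of difference. The difference was -0.86 for Il1rl1 (adjusted p = 0.776), -1.48 for Klrg1 (adjusted p = 0.0815), -0.43 for Ccr2 (adjusted p = 0.755), 1.42 for Areg (adjusted p = 0.887) and 0.16 for Gata3 (adjusted p = 0.945). Their shares by class, untested, were as follows: Il1rl1 was read in 34.1% of VAT Treg cells pooled and 3.95% of VAT Foxp3-zero cells, Klrg1 in 46.8% and 6.74%, and Areg in 14.5% and 0.582%. Of the 18 naive and recirculation genes, 15 fell and 1 rose in Foxp3-zero cells (median log2 fold change -0.87), of the tissue receptors 11 of 11 tested rose (median 2.52), and of the S100, annexin and galectin genes 13 of 14 rose (median 2.73). By list, the interaction called 0 higher and 3 lower of 14 S100, annexin and galectin genes (S100a4, S100a6 and Ahnak), 0 and 3 of 19 Treg core genes (Il2rb, Nrp1 and Entpd1), 0 and 2 of 10 type 1 genes (Cxcr3 and Ccl5), 0 and 2 of 12 secreted products (Fgl2 and Csf2), and 0 and 2 of 20 adhesion genes (Itgb1 and Itgal). It called 0 higher and 1 lower of 15 tissue receptors (Il18r1), 13 transcription factors (Maf), 18 naive genes (Bcl2) and 12 cell cycle genes (Top2a). Of the stress genes it called 2 higher of 18 AP-1 and immediate early genes (Jun and Jund) and 2 of 24 feedback genes (Zfp36 and Nfkbia), with none lower. S100a4 (difference -1.37, adjusted p = 0.0261) and S100a6 (-1.05, 0.0246) thus changed less in Treg cells, and each was called in 4 of the 8 fits that left out 1 sample. In those 8 fits the calls of Il18r1, Nrp1, Entpd1, Jun and Nfkbia were each lost 4 or more times, those of Cxcr3, Ccl5 and Fgl2 3 times and those of Itgal, Csf2 and Top2a 2 times.

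**Figure D5:**
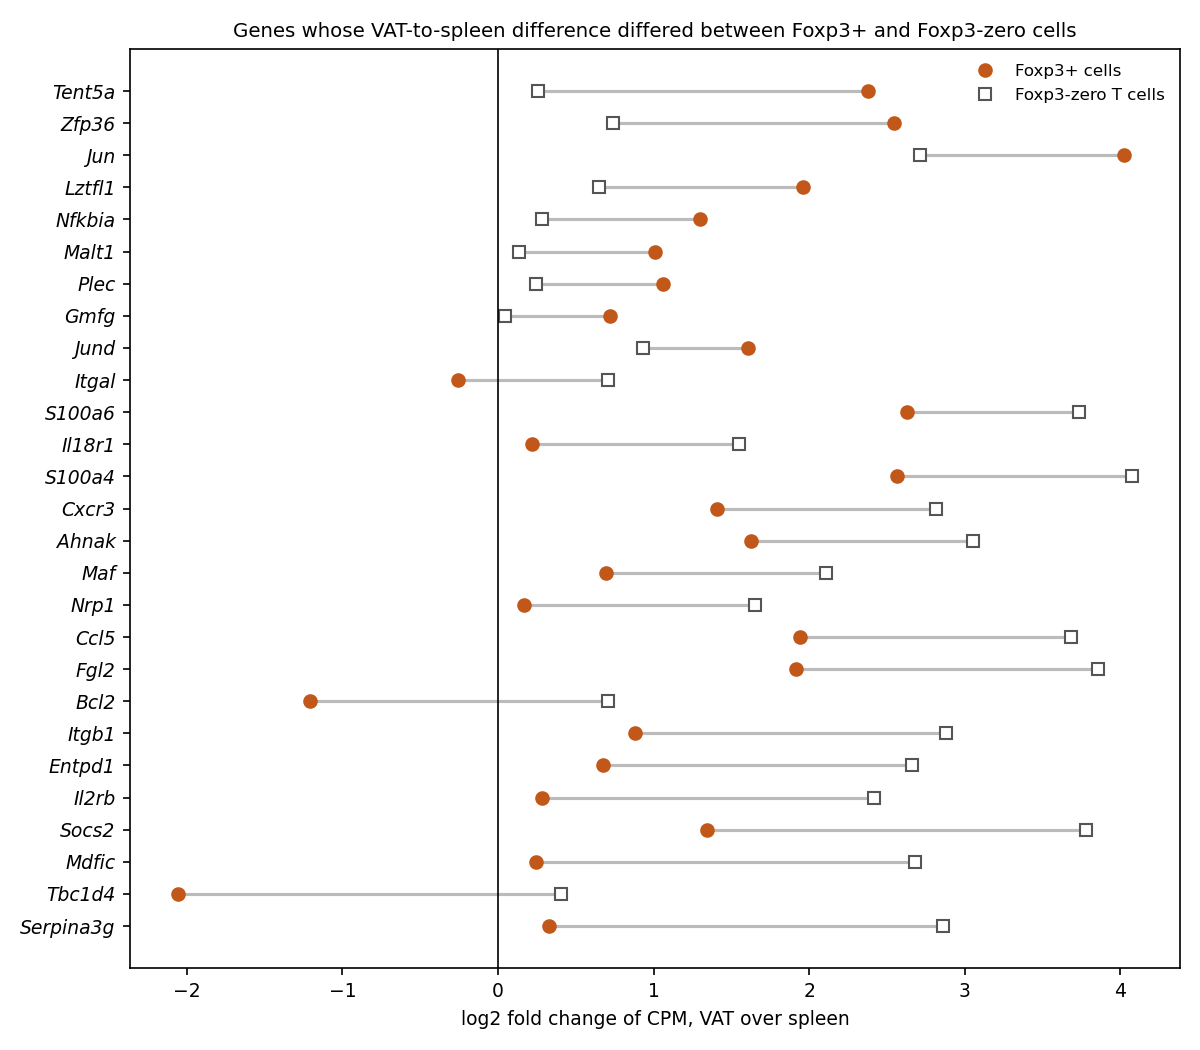
Log2 fold change of VAT over spleen in Treg cells (dots) and in Foxp3-zero T cells (squares) for 27 listed or named genes whose effect differed between the classes at an adjusted p under 0.05. For 9 genes, Tent5a and Zfp36 among them, the Treg value is the larger, and for 18, Itgb1 and Il2rb among them, the smaller.

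SAT was digested with collagenase like VAT, which spleen was not. Among 220 VAT and 191 SAT Treg cells, 23 of 4423 genes were higher in VAT (0.52%) and 10 lower (0.226%). The 33 calls became 18 without SAT1, 65 without SAT4 and 19 without VAT1. Il1rl1 was higher in VAT than in SAT by 1.44 on the log2 scale (adjusted p = 0.00273), S100a4 by 1.08 (3.26e-05) and S100a6 by 0.97 (8.38e-05). AA467197 (2.91, adjusted p = 0.000215), Cxcl2 (3.69, 5.58e-05), Apoe (3.997, 0.000727) and Fcer1g (3.01, 0.00151) were higher too; Apoe and Fcer1g could not be tested against spleen without the myeloid-rich cells. Areg (1.53, adjusted p = 0.0429) was also called, but not without VAT2 (1.07, 0.214), SAT1 (1.44, 0.251) or SAT2 (1.08, 0.211).

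The chemokine gene Ccl5 was lower in VAT than in SAT (-1.22, adjusted p = 0.00273). Klrg1 (0.02, adjusted p = 0.994), Ccr2 (0.54, 0.318) and Gata3 (0.44, 0.318) did not pass. Stress genes still differed between the fats: Zfp36 was 0.96 higher in VAT on the log2 scale (adjusted p = 0.000448) and Jund 0.62 (0.000499), while 6 of 11 tested heat shock genes were lower and 1 higher. The stress share of UMIs was 2.29, 2.43, 1.84 and 1.51% in VAT1 to VAT4 and 2.18, 1.99, 1.73 and 1.702% in SAT1 to SAT4. This comparison and the one against spleen use the same 4 VAT samples.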

How the data were processed

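Single CD4 T cells were read with 10x 3' chemistry in 2 libraries of 8 hashed samples each. The authors deposited raw UMI counts per gene, hashtag and barcode, made with Cell Ranger 6.1.0 per the file headers, on mm10 per the submitters' processing notes, which also name Seurat. Cells were kept with at least 500 genes, 1000 gene UMIs, under 10% mitochondrial UMIs and 1 Trbc1 or Trbc2 UMI. Each of the 8 labelled hashtags was matched to its sample by number and its count plus 1 divided by its median. No doublet caller was run; cells with no leading tag were left out. Raw UMIs were summed per hashed sample and tested with edgeR 4.0.16 in R 4.3.3 (TMM scaling, expression filter with a minimum count of 10, quasi-likelihood test, experiment as a term, Benjamini-Hochberg threshold 0.05); DESeq2 1.42.0 was an alternative. CPM is UMIs per 1000000 of the TMM-scaled library total, and standard errors are the fold change divided by the root of F. The difference between Treg and Foxp3-zero cells was an interaction term with the hashed sample as block. Named genes were the 12 highest and 10 lowest called genes with no overlap within experiments, 6 stress genes, list members and the largest interactions. Some genes, and a planned setting that needs 1 of them, are not reported here; cells for the background share were therefore chosen by Ccr7 alone, after seeing the data. The members and lists were chosen with earlier results of these data known. The labels call the samples biological duplicates and do not say which animals they came from, so p-values measure the spread between these samples. The alternatives tried, their counts and the fits without 1 sample are given below. The fit was tested on simulated data.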

Additional observations from a re-analysis of the deposited data

Results flagged for a closer look

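Among 84 groups of 4 samples checked for a sample far from the other 3, 6 stood out. A group with 3 samples at 0 and 1 above it always stands out by this rule, so no chance rate applies to such groups. For Gzmb, SPLN2 had 11.92 CPM and the other spleen samples had none. For Fcer1g, SPLN2 had 8.94 CPM and the other spleen samples had none. For Myadm, VAT2 had 83.99 CPM, above the other VAT samples, and SPLN1 had 5.746 CPM with the other spleen samples at 0. For AA467197, SPLN1 had 8.619 CPM with the other spleen samples at 0. For Ttc39c, SPLN1 had 11.49 CPM, above the other spleen samples.

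The VAT over spleen effect differed between Treg and Foxp3-zero cells by edgeR's interaction term for 11 genes named by size. The difference of log2 fold changes was 2.14 for Tent5a, 1.281 for Lztfl1, 0.8772 for Malt1, 0.8146 for Plec and 0.6809 for Gmfg. It was -4.938 for Csf2, -3.08 for Top2a, -2.669 for Serpina3g, -2.475 for Tbc1d4, -2.461 for Mdfic and -2.353 for Socs2. In fits that left out 1 sample, Tent5a, Tbc1d4, Mdfic and Socs2 were called 8 times of 8.

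The calls of the other genes were lost in some of those fits. Lztfl1, Plec and Gmfg were called in 2 of 8 and Malt1 in 1 of 8. Csf2, Top2a and Serpina3g were called in 6 of 8. Csf2 gave -3.50 without SPLN1 (adjusted p = 0.54) and -5.09 without SPLN2 (adjusted p = 0.062). Top2a gave -0.43 without SPLN1 (adjusted p = 0.97), and Serpina3g gave -2.74 without SPLN3 (adjusted p = 0.075) and -2.30 without SPLN4 (adjusted p = 0.128).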

How the results depend on the processing

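Of the 631 genes called between VAT and spleen Treg cells, alternatives with no more than a 1.5-fold move gave 508 to 807. Larger moves came with experiment 1 alone (323) or 2 alone (330), at least 2 Foxp3 UMIs (382), low-stress cells (242, without VAT2), cells without another type's UMI (106 of 727 tested, experiment 2 alone), DESeq2 (400), cells thinned to 1000 UMIs (140) and, chosen after seeing the data, cells with under 3 such UMIs (404). With library size, 397 were higher and 225 lower. Leaving out 1 sample gave 475 to 643. In Il1rl1-zero cells (424), DESeq2 gave 230, thinning 79 and leaving out 1 sample 341 to 406. Against SAT (33), DESeq2 gave 21, no filter 143, no stress genes 14, thinning 11 and leaving out 1 sample 18 to 65. For Foxp3-zero cells (3592) the last gave 3078 to 3339, and for the interaction (55) 24 to 59, with 13 for drawn-down cells and 129 with no filter.

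In low-stress cells Btg2 (-0.127), Ifi27l2a (0.260) and Zfp36l1 (-0.774) reversed. With under 3 other-type UMIs Dusp2 (-0.153) did. The difference in median genes per cell ran from -158 to 40.9 when 1 sample was left out. The cause was not tested.

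Deviations of same-numbered samples from the tissue and experiment means correlated at -0.169, -0.174, -0.119 and -0.246. Those of other-numbered samples of the same experiment correlated at -0.156, -0.274, -0.188 and -0.209. Such deviations lean negative by construction, so these values cannot tell whether the replicate numbers pair the samples. The replicate block gave 622 genes against spleen, 436 in Il1rl1-zero cells, 35 against SAT and 3383 in Foxp3-zero cells. Depth limits sparse genes such as Pparg and Il10.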

Other observations

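Foxp3+ cells of BAT and SAT were counted as values only. Il1rl1 was read in 12.1, 15, 8.696 and 11.1% of those of BAT1 to BAT4 and in 22.2, 42.4, 13.2 and 8.97% of those of SAT1 to SAT4. Klrg1 was read in 18.2, 20, 17.4 and 11.1% in BAT and 62.96, 60.6, 28.3 and 34.6% in SAT. Pparg was read in 3.704, 9.09, 3.77 and 3.85% of those of SAT1 to SAT4. Ttc39c had 30.7, 53.2, 25.7 and 8.795 CPM in BAT1 to BAT4 and 28.3, 61.4, 39.97 and 59.8 CPM in SAT1 to SAT4, between its levels in VAT and in spleen on average.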
